A study of Mus musculus with 6 samples.

Results

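Small leucine-rich proteoglycans were described in the peri-infarct region of mouse hearts 4 weeks after myocardial infarction (MI). The 10 genes Dcn, Bgn, Aspn, Ecm2, Fmod, Lum, Prelp, Omd, Ogn and Podn were chosen by name, among 30176 genes with a probe set of their own on the array. Each of the 10 had 1 probe set that carried only its symbol, and all 10 passed the filter on low signals. The mice were male C57BL/6. In the MI group the left anterior descending coronary artery was tied, and tissue came from the border between scar and surviving muscle. Sham animals had the same operation without the tie, and the matching region was taken. There were 3 samples per group, each hybridized to 1 GeneChip mouse transcriptome array, and values are log2 signals after RMA by the authors. The age of the mice and whether each sample was a separate heart are not given in the sources used here, so the p-values measure the spread between these samples.

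Small leucine-rich proteoglycans are secreted proteins built of a curved stack of leucine-rich repeats, most of which carry chains of chondroitin, dermatan or keratan sulfate. They coat collagen fibrils, set fibril thickness and spacing, and hold growth factors of the TGF-β family in the matrix. In the heart fibroblasts are their main source, and they belong to the matrix of the infarct scar. By the cysteines before the repeats they are placed in classes: decorin, biglycan and asporin in class I, with Ecm2 as a relative, fibromodulin, lumican, Prelp and osteomodulin in class II, osteoglycin in class III, and podocan in a class of its own.

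The tissue on the arrays was ventricular muscle with other cell types in it, and some arrays stood apart. Signals of 10 cardiomyocyte markers had a median of 17.31 to 17.52 in sham and 17.40 to 17.43 in MI. None was called. On every MI array 6 of the 10 were lower than on any sham array, as were 5527 of all 32979 probe sets tested. Among the 6 were Ryr2 at -0.89 and Tnni3 at -0.46 on the log2 scale. Another 2 (Tnnt2 and Actc1) were at the maximum of every array. The atrial marker Myl7 read 4.95, 11.19 and 8.43 in sham 1, 2 and 3 and 4.51 to 4.78 in MI. Small nuclear RNA probe sets (591 tested) read a median of 1.21 higher in sham 1 than the mean of the other sham arrays and 2.35 higher in MI 3 than the mean of the other MI arrays, on the log2 scale. Ribosomal RNA probe sets (88) were likewise 0.51 and 1.96 higher, against -0.02 and -0.03 for protein-coding ones. The counts called among the members and in the lists are therefore also given without sham 1 and MI 3. Each array carried 23 background control probe sets, of which the brightest had a signal of 5.12 to 6.08.

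Most of these genes had higher signals in the infarcted hearts. Of the 10 genes, 9 rose in MI and none fell at an adjusted p under 0.05 from limma, where 2.97% of all 32979 probe sets tested were called higher and 3.64% lower. In the same 9 genes the lowest MI array was above the highest sham array, which held for 15.0% of all probe sets tested. The median log2 difference (MI mean minus sham mean) was 2.41 over the 10 genes and 0.01 over all probe sets tested. Podn was the exception. Fold values below are 2 to the power of that difference and rest on the scale of the deposited values. Because these are bulk samples, more cells that make a transcript and more transcript per cell cannot be told apart.

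**Figure D1:**
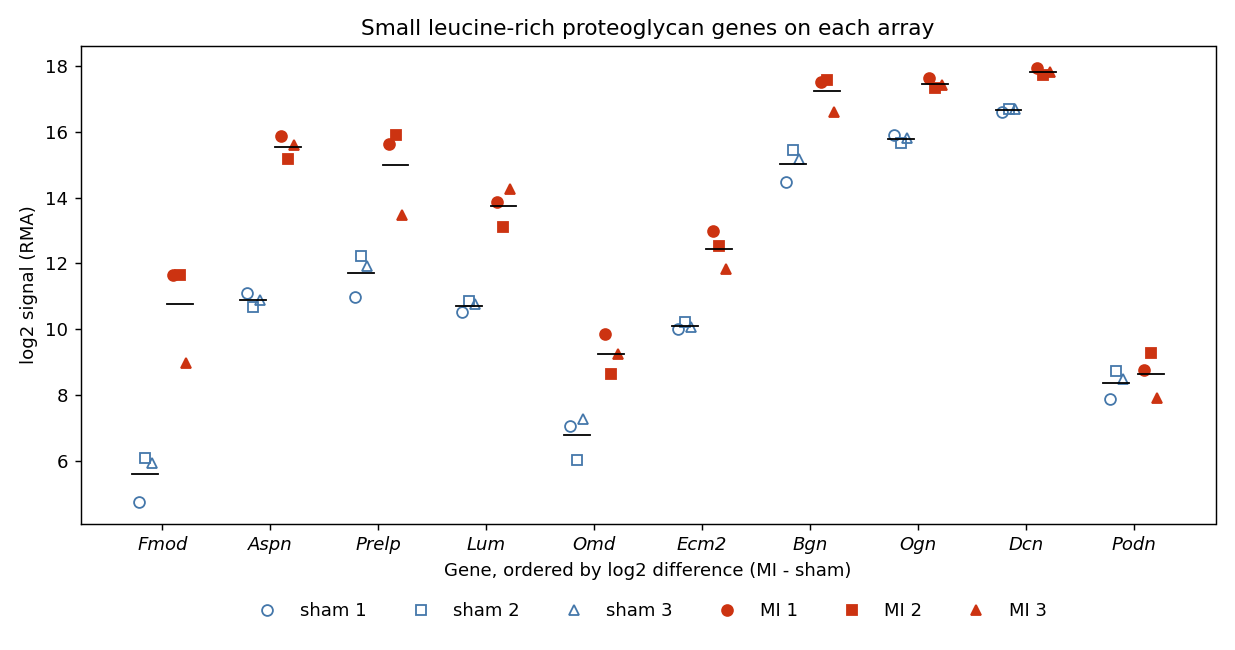
The log2 signal (y axis, RMA) of each of the 10 genes (x axis, ordered by the difference between groups) on the 3 sham arrays (open blue) and 3 MI arrays (filled red), 1 symbol per array, with a bar at each group mean. The groups do not overlap for 9 genes and overlap for Podn. Heights of different genes come from different probe sets and cannot be set against each other.

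Among the class I genes, Aspn had the largest rise and Dcn the smallest. Aspn encodes asporin, which has an aspartate-rich amino terminus, carries no sulfate chain and binds collagen and TGF-β. Its signal was 11.11, 10.67 and 10.88 in sham 1, 2 and 3 and 15.88, 15.16 and 15.59 in MI 1, 2 and 3. The lowest MI array thus stood 4.05 above the highest sham array, the widest gap in the family. The log2 difference of Aspn was 4.66 (standard error 0.21, adjusted p = 0.00741 from limma), a 25.3-fold change.

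Dcn encodes decorin, the best known member, which wraps collagen fibrils and can bind TGF-β. Its signal was 16.61, 16.70 and 16.70 in sham and 17.95, 17.74 and 17.81 in MI. The 3 values of each group lay close together, with a standard deviation of 0.06 in sham and 0.11 in MI. Dcn rose by 1.16 on the log2 scale (standard error 0.10, adjusted p = 0.0103 from limma), 2.24-fold. Dcn is among the genes that the study itself selected on these samples, so its rise is not independent evidence.

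Bgn encodes biglycan, the nearest relative of decorin, which in its free form is a ligand of the toll-like receptors Tlr2 and Tlr4. Its signal was 14.47, 15.44 and 15.18 in sham 1, 2 and 3 and 17.51, 17.57 and 16.61 in MI 1, 2 and 3. Sham 1 and MI 3 were the lowest array of their group. The log2 difference of Bgn was 2.20 (standard error 0.35, adjusted p = 0.0258 from limma). Ecm2, a matrix protein whose repeats resemble those of decorin, read 10.01 to 10.23 in sham and 12.99, 12.52 and 11.84 in MI 1, 2 and 3. Its log2 difference was 2.35 (standard error 0.28, adjusted p = 0.0166 from limma).

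The class II genes held both the largest change and the widest spread between MI arrays. Fmod encodes fibromodulin, which guides collagen fibril assembly and cross-linking. It read 4.74, 6.09 and 5.93 in sham 1, 2 and 3 and 11.64, 11.64 and 8.97 in MI 1, 2 and 3. In sham 1 this was below the brightest background control of the array, and in sham 2 and sham 3 it was little above theirs, which read 5.93 and 5.73. MI 3 was well below the other MI arrays and well above all sham arrays. The log2 difference was 5.16 (standard error 0.80, adjusted p = 0.0246 from limma), 35.8-fold, and it rests on sham signals near background.

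Prelp encodes a proline- and arginine-rich protein that links basement membranes to the collagen around them. It read 10.97, 12.23 and 11.93 in sham 1, 2 and 3 and 15.62, 15.90 and 13.48 in MI 1, 2 and 3. The order of arrays was that of Fmod, with sham 1 and MI 3 at the bottom of their groups. Its log2 difference of 3.29 had a standard error of 0.69, and the adjusted p of 0.0469 from limma was the one nearest the threshold in the family.

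Lum encodes lumican, which carries keratan sulfate in the cornea and spaces collagen fibrils there. Its signal was 10.51, 10.86 and 10.76 in sham and 13.86, 13.11 and 14.26 in MI 1, 2 and 3. Here MI 3 was the highest MI array, unlike in Fmod and Prelp. The log2 difference of Lum was 3.03 (standard error 0.30, adjusted p = 0.0131 from limma), 8.19-fold. Omd, osteomodulin, a keratan sulfate proteoglycan of bone and teeth, read 7.06, 6.02 and 7.28 in sham and 9.86, 8.64 and 9.24 in MI. In sham 2 this was little above the brightest background control of the array, which read 5.93. The log2 difference of Omd was 2.46 (standard error 0.43, adjusted p = 0.0313 from limma).

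Outside these classes, Ogn rose and Podn was not called. Ogn encodes osteoglycin (mimecan), a gene tied to left ventricular mass in rat and human. It read 15.89, 15.66 and 15.82 in sham and 17.63, 17.32 and 17.42 in MI, a log2 difference of 1.66 (standard error 0.12, adjusted p = 0.00827 from limma). Its standard deviation of 0.16 in MI was, after that of Dcn, the smallest in the family. Podn encodes podocan, which restrains smooth muscle growth in mice. It read 7.88, 8.73 and 8.49 in sham 1, 2 and 3 and 8.76, 9.26 and 7.90 in MI 1, 2 and 3. The groups overlapped, since MI 3 was as low as sham 1. The log2 difference of Podn was 0.27, with a 95% interval from limma of -0.67 to 1.21 and an adjusted p of 0.708. A change of up to 1.21 is thus within the error of this measurement.

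**Figure D2:**
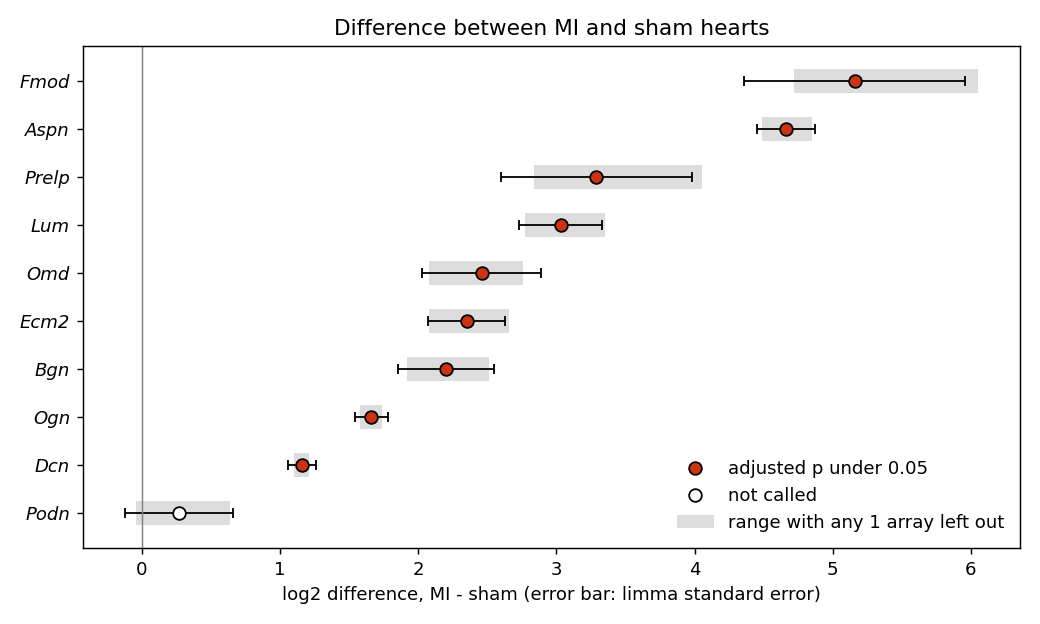
The log2 difference between MI and sham (x axis) for each gene (y axis), with the standard error from limma as the bar and, in grey, the range of the difference when any 1 array was left out. Filled points had an adjusted p under 0.05. Podn is the only gene whose grey range crosses 0, from -0.04 to 0.64.

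The size of the differences was steadier than the calls. With any 1 array left out, the log2 difference of Fmod stayed between 4.72 and 6.05, of Aspn between 4.49 and 4.85, and of Dcn between 1.10 and 1.21. For Podn it ran from -0.04 to 0.64, and its groups did not overlap without MI 3. The number called was 9 without MI 3 (6.84% of all probe sets were then higher), 4 without sham 1 (0.470%) and 4 without MI 2 (0.143%). With sham 2, sham 3 or MI 1 left out, limma called 0 genes, while 9 had an unadjusted p under 0.05. In these 3 fits limma called no probe set at all, with 6013 to 6340 at an unadjusted p under 0.05. Without both sham 1 and MI 3 it was 8 (6.55%), with Omd at an adjusted p of 0.054 from limma. The methods' t-test called 3, Aspn, Dcn and Ogn (0.346% of all probe sets higher), and limma after quantile normalization called 6 (2.27%).

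Fmod, Prelp, Bgn and Podn moved together within the groups, and Dcn, Aspn, Omd, Ogn and Lum did not share that movement. The log2 signal of sham 1 minus the mean of the other sham arrays was -1.27 for Fmod, -1.11 for Prelp, -0.84 for Bgn and -0.73 for Podn. That of MI 3 minus the mean of the other MI arrays was -2.67 for Fmod, -2.28 for Prelp, -1.11 for Podn and -0.93 for Bgn. Between the 5th and the 95th percentile, protein-coding probe sets ran from -0.43 to 0.27 in sham 1 and from -0.73 to 0.52 in MI 3, so these 4 genes lay below both ranges. This was not particular to the family. In sham 1 and MI 3, Col1a1 deviated by -0.84 and -1.72, Mmp2 by -0.79 and -2.13, and Mfap5 by -0.92 and -1.75. Other genes did not share it, such as Dpt with 0.28 and -0.17. Ecm2 was low in MI 3 (-0.92) and not in sham 1 (-0.12). Dcn, Aspn, Omd and Ogn deviated by -0.05 to 0.07 in MI 3 and by -0.10 to 0.41 in sham 1. Lum deviated by -0.30 in sham 1 and 0.78 in MI 3. Aspn (0.34) and Omd (0.41) in sham 1 and Lum in MI 3 lay above the ranges of protein-coding probe sets.

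**Figure D3:**
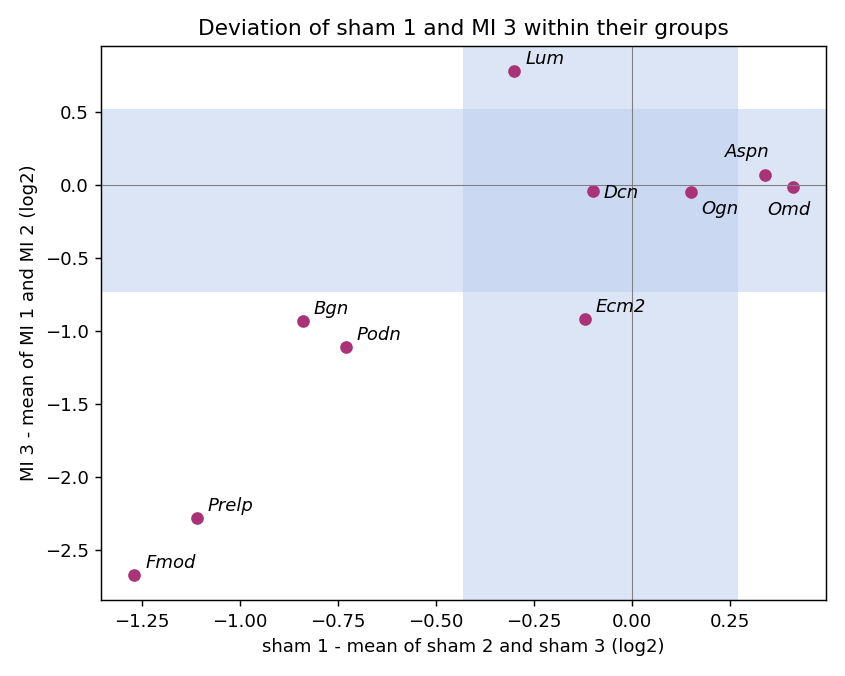
Each point is a gene. The x axis is the log2 signal of sham 1 minus the mean of sham 2 and sham 3, the y axis that of MI 3 minus the mean of MI 1 and MI 2, and the shaded bands run from the 5th to the 95th percentile of protein-coding probe sets. Fmod, Prelp, Bgn and Podn lie low on both axes, with Fmod at -1.27 and -2.67.

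Sham 1 and MI 3 are the arrays with high small nuclear and ribosomal RNA signals. The atrial marker Sln read 4.46, 10.25 and 7.45 in sham 1, 2 and 3. Both Sln and Myl7, given above, were lowest in sham 1 and highest in sham 2, as Fmod, Prelp, Bgn and Podn were. The order was not particular to those genes, since Lum and Ecm2 had it too. Aspn, Omd and Ogn were instead lowest in sham 2. In MI, Sln read 4.31 to 5.13, and both atrial markers were at or below the brightest background control on all 3 arrays. The part of these signals in the movement was not tested. Without sham 1 and MI 3 the log2 difference of Fmod was 5.63, of Prelp 3.68, of Bgn 2.23 and of Podn 0.40. Between MI 3 and sham 1 alone, a comparison of single arrays, it was 4.22, 2.51, 2.14 and 0.01 in the same order. For Aspn the same values were 4.75 and 4.48, and for Dcn 1.14 and 1.20. The difference of these genes thus kept its direction in both comparisons, and that of Podn was near 0 in the second.

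A set of 6 pairs of members was compared within arrays, where a difference between 2 genes on the same array cancels what both share. The change of Aspn minus that of Ogn was 2.99 on the log2 scale (standard error 0.14), and that of Fmod minus that of Prelp was 1.87 (standard error 0.17). Fmod and Prelp lie side by side on chromosome 1, and Aspn and Ogn share a locus on chromosome 13 with Omd between them. The change of Aspn minus that of Omd was 2.20 (standard error 0.34). Against its nearest relative Bgn, the difference of the changes was -1.04 for Dcn (standard error 0.40), and against Lum it was -1.87 (standard error 0.32). In these 5 pairs the MI and sham arrays did not overlap and the two-sided exact permutation test gave p = 0.1, the smallest that 3 against 3 arrays allow (adjusted p = 0.12 over the 6 pairs). For Fmod minus Lum it was 2.13, with a standard error of 1.21 and p = 0.3 (exact permutation test). Since none could reach 0.05, the pairs are given as sizes with their errors. Different probe sets measure the genes of a pair, and whether they respond alike to a change was not tested. The mean signals of Dcn, Ogn and Bgn exceeded those of 99.2%, 99.0% and 98.8% of transcript probe sets, and Fmod was near background in sham.

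Most members are neighbours in the genome, by the RefSeq gene order of mouse assembly GRCm38.p6. Ecm2, Aspn, Omd and Ogn follow each other on chromosome 13, inside the span of the centromere protein gene Cenpp. Dcn and Lum lie side by side on chromosome 10, Prelp and Fmod on chromosome 1, Podn stands alone on chromosome 4 and Bgn on chromosome X. The 6 stretches shown here are the 150 bases before the RefSeq start of the 4 neighbours on chromosome 13 and of Fmod and Bgn. All 4 neighbours were called higher. Fmod and Bgn were low in both sham 1 and MI 3, and of the 4 neighbours Ecm2 was also low in MI 3 (-0.92). The stretches are credited to RefSeq, GRCm38.p6, and run 5′ to 3′ towards the gene, with motif matches in capitals.
Ecm2, chr13:49504660-49504809, plus strand: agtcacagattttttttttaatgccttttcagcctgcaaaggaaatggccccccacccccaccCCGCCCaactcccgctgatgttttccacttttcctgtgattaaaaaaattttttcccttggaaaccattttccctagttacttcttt
Aspn, chr13:49544293-49544442, plus strand: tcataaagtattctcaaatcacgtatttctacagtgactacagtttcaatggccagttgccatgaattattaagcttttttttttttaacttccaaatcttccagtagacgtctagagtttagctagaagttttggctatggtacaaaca
Omd, chr13:49582312-49582461, plus strand: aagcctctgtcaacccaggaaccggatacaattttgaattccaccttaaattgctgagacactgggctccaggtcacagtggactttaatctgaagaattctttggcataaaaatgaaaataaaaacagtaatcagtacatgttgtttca
Ogn, chr13:49607865-49608014, plus strand: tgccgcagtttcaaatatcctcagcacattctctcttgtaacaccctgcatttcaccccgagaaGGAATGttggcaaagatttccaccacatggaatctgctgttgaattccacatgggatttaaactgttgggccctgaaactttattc
Fmod, chr1:134037104-134037253, plus strand: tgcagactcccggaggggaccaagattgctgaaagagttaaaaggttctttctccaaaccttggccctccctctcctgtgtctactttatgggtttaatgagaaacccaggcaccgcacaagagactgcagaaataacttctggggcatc
Bgn, chrX:73483451-73483600, plus strand: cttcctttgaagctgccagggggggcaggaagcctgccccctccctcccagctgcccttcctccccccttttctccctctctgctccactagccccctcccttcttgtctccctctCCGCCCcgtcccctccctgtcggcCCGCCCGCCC

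The capitals are GC boxes (GGGCGG or CCGCCC) in Ecm2 and Bgn and a TEAD motif (GGAATG) in Ogn. The last 2 GC boxes of Bgn overlap. Aspn, Omd and Fmod held no match in the stretch shown. The RefSeq promoter table held 9 starts of 8 members, Podn having 2, and none for Dcn and Lum. Motifs were searched on both strands in the 250 bases before each start. GC boxes were in 3 of the 9 member promoters (Bgn, Ecm2 and Podn) and in 32.7% of all 32851 promoters. TATA boxes (TATAAA) were in 2 of 9, Aspn and Ogn, each farther upstream than the stretch shown, and in 12.4% of all, and CCAAT boxes in 2 of 9 (Aspn and Prelp) and 33.8%. The TEAD motif was in 1 of 9 and in 12.6% of all. No match of the AP-1 motif (TGANTCA, 6.75% of all promoters) or of the SMAD motif (CAGACA, 17.1%) was found in the 9 windows. A match is a run of letters and not evidence of binding. In base composition, G and C made up 33.3% of the stretch of Aspn, 38.0% of Omd, 42.7% of Ecm2 and 44.0% of Ogn, against 49.3% in Fmod, 56.0% in Prelp, 70.0% in Bgn and 74.7% at the first start of Podn.

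The tested genes around these loci were not called higher with them, apart from 1. Of 20 neighbouring protein-coding genes (the 2 on each side of a locus), 18 had a probe set of their own and 10 were tested. Limma called 1 higher and 2 lower, and their median log2 difference was -0.07. Btg2, an antiproliferative gene next to Fmod, was 1.11 higher (adjusted p = 0.0205 from limma). Cenpp, around the chromosome 13 genes, had a difference of 0.09 (adjusted p = 0.690 from limma), and Ippk and Nol8, beside them, had -0.18 and 0.05. Next to Podn, the fatty acid oxidation gene Cpt2 fell by 1.37 and Echdc2 fell by 0.59 on the log2 scale (adjusted p = 0.0251 and 0.0258 from limma). Kera and Epyc, proteoglycans of the same family beside Lum, and Optc, beside Prelp, lay under the filter, with sham means of 3.37, 3.87 and 4.36. Their MI means were 3.50, 4.62 and 4.29. Epyc read higher on each MI array than on any sham array, with all its signals at or below the brightest background control.

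**Figure D4:**
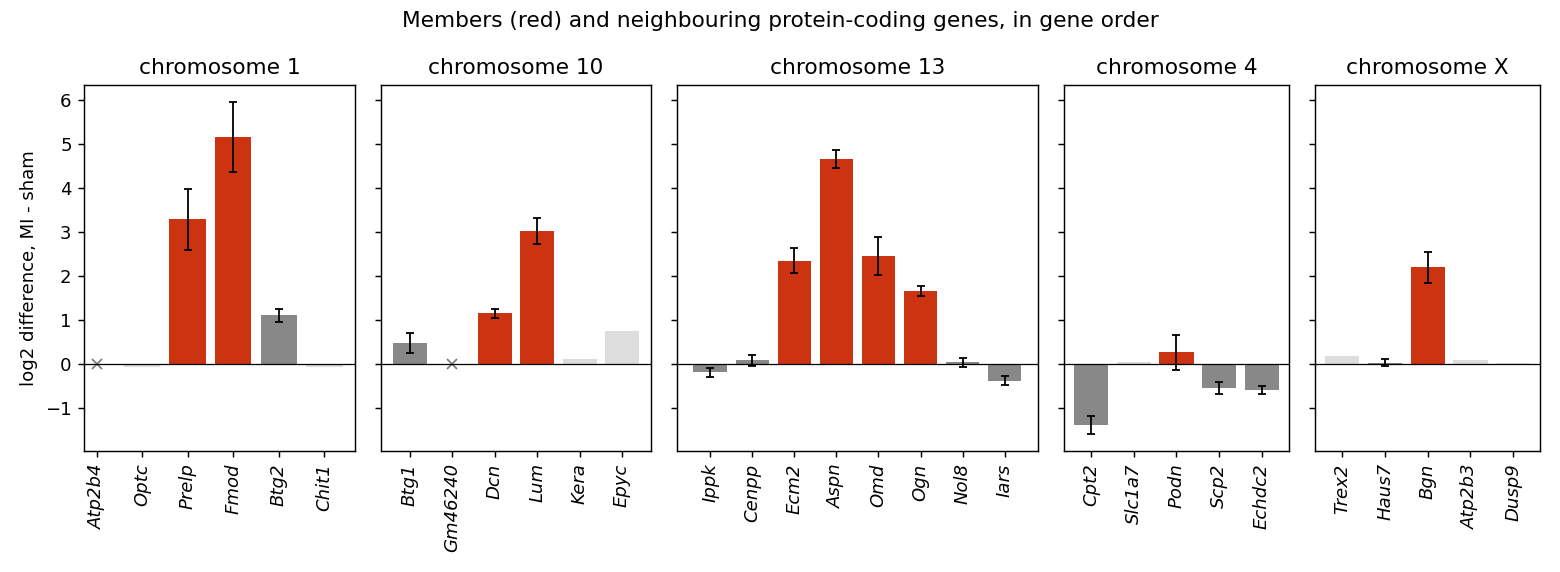
The log2 difference between MI and sham (y axis) of the members (red) and their neighbours (grey if tested, pale if under the filter, cross if without a probe set of their own) in gene order at the 5 loci, with the standard error from limma for tested genes. Distances are not to scale. The 4 members on chromosome 13 read 1.66 to 4.66, and the 4 genes around them -0.37 to 0.09.

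Most of the other family genes were at background. Of 8 listed, 7 had a probe set, and in 6 of them (Kera, Epyc, Optc, Nyx, Podnl1 and Chadl) every array was at or below its brightest background control. Only Chad, chondroadherin, a cartilage protein, was tested. It read 4.96, 7.54 and 6.22 in sham 1, 2 and 3 and 7.96, 7.54 and 5.69 in MI 1, 2 and 3. Its groups overlapped, with sham 1 and MI 3 lowest again, and the log2 difference was 0.82 (adjusted p = 0.580 from limma).

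Enzymes that build the sulfate chains were called in part, mostly those of chondroitin and dermatan sulfate. Of 12 tested genes that lengthen, epimerise or sulfate chondroitin and dermatan sulfate, 4 rose and none fell, with a median log2 difference of 0.57. The largest were the 2 epimerases that turn chondroitin into dermatan sulfate, Dse with 1.81 and Dsel with 1.03 (adjusted p = 0.0147 and 0.0110 from limma). Dse read 6.02 to 6.12 in sham, little above the brightest background controls, and 8.24, 7.96 and 7.44 in MI 1, 2 and 3. Chst11 and Csgalnact2 also rose, by 0.67 and 0.61, with Chst11 at or below the brightest background control on 1 sham array. Chst15 was lowest with -0.07 (not called). Of the 5 tested genes that start the chain, Xylt1, which adds the first sugar, rose by 0.65, with all 3 sham arrays and 2 of 3 MI arrays at or below the brightest background control, and the kinase Fam20b fell by 0.51 on the log2 scale (adjusted p = 0.0313 and 0.0443 from limma). The others, Xylt2, B4galt7 and B3gat3, had differences of 0.07, -0.17 and -0.20. None of 5 tested keratan sulfate enzymes was called by limma (1, Chst2, had an unadjusted p under 0.05), with differences of 0.30 in Chst2, -0.03 in B4galt1, -0.05 in Fut8, -0.08 in Chst1 and -0.11 in B4galt4. None of 6 genes of tyrosine sulfation and sulfate supply was called either, from 0.41 in Papss2 and 0.29 in Papss1 to -0.25 in Tpst2.

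**Figure D5:**
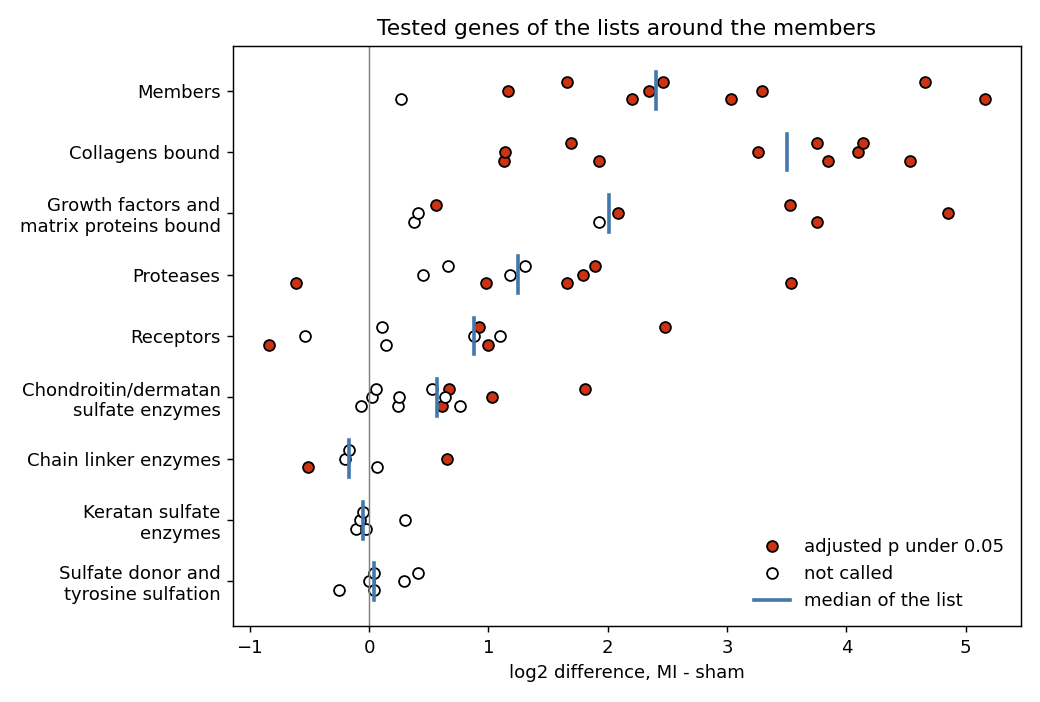
The log2 difference between MI and sham (x axis) of each tested gene in the lists around the members (y axis), filled where the adjusted p from limma was under 0.05, with the median of each list as a blue line. The medians are 2.41 for the members, 3.50 for the collagens, 0.57 for the chondroitin and dermatan sulfate enzymes and -0.05 for the keratan sulfate enzymes.

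All the collagens listed and most of the growth factors and matrix proteins that these proteoglycans bind were higher too. The 10 collagens were called higher by limma, with a median log2 difference of 3.50, from 1.13 in Col5a1 to 4.14 in Col3a1 and 4.53 in Col12a1, a fibril coat collagen. Col5a1 and Col12a1 were at or below the brightest background control on all sham arrays, and Col5a1 also on 1 MI array. Several of them were selected by the study on these samples. Col3a1 read 8.89, 9.27 and 9.68 in sham and 13.79, 13.87 and 12.59 in MI 1, 2 and 3. MI 3 was the lowest MI array in all 10 collagens, as in 5 of the 10 proteoglycans. Of 8 tested growth factors and matrix proteins bound by members, 5 rose, led by fibronectin Fn1 (4.85) and Ccn2 (3.75), and none fell. Of the 5, Ccn4 (0.56) read at or below the brightest background control on every array. Among the TGF-β genes, Tgfb3 rose by 3.53 (adjusted p = 0.0170 from limma), Tgfb2 had a difference of 1.93 (adjusted p = 0.0522) and Tgfb1 of 0.41 (adjusted p = 0.226). Tnxb was lowest with 0.38. Fn1 and Tgfb3, like Tlr4, Thbs4, Comp and Thbs2 below, are also among the genes that the study selected on these samples. Their rises are thus not independent evidence.

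Receptors and proteases of the family changed in both directions. Of 9 tested receptors, 3 rose: Lrp1, which takes up decorin, by 2.48, the decorin receptor Egfr by 1.0 and the biglycan receptor Tlr4 by 0.92 (adjusted p = 0.0187, 0.0391 and 0.0131 from limma). Tlr2, the other biglycan receptor named, had a difference of 0.88 (adjusted p = 0.0631 from limma) and Itga2 of 1.10, and neither was called. Erbb4 fell by 0.84 on the log2 scale (adjusted p = 0.0345 from limma). Of 10 tested genes of proteases that cut members, with the enhancer Pcolce, 5 rose and 1 fell, with Mmp2, a gelatinase that cuts decorin, at 3.54 and Mmp3 at 1.89, the latter from sham signals at or below the brightest background control. Bmp1, the procollagen proteinase that also matures biglycan, rose by 0.98 (adjusted p = 0.0495 from limma), and Htra1, which degrades decorin and biglycan, fell by 0.61 on the log2 scale (adjusted p = 0.0288 from limma).

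Some markers of fibroblasts rose with the family and others did not, and their part in its rise was not tested. Of 10 tested fibroblast markers, 4 rose and none fell, led by Mfap5 (4.36) and Pi16 (2.20). Scara5 was lowest with -0.37 (not called), each MI array reading below all sham arrays. Dpep1 (0.06), Tcf21 (0.40) and Cd248 (0.40) were not called either, and their groups overlapped. The median difference of the 11 with a probe set from their sham mean was 1.39, 1.30 and 0.29 in MI 1, 2 and 3, where that of the 10 proteoglycans was 2.98, 2.41 and 1.75. Of 10 activated fibroblast markers, 8 rose, led by Cilp (7.16) and Thbs4 (6.55), and Acta2 was lowest with -0.58 (not called). Of 7 tested tendon and cartilage markers, 4 rose, Comp by 7.48 and Tnmd by 3.21. In sham, 9 of the 10 with a probe set, Tnmd among them, were at or below the brightest background control, and 5 were so on all arrays, so the differences of those start from background. Cnmd was lowest with 0.05. Of 10 macrophage markers 3 rose, and their median signal was 7.54 to 7.86 in sham and 8.23 to 9.12 in MI. No tested marker of cardiomyocytes (10), endothelial cells (9), smooth muscle cells and pericytes (9), mesothelium (6), lymphocytes (3) or adipocytes (3) was called by limma. Of 4 tested atrial markers 1 was called higher, Nppa, which is also a stress gene of the ventricle. Its signal was the maximum of the array on all 3 MI arrays, so its size is not given.

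Without sham 1 and MI 3, limma called 6.55% of all probe sets higher and 6.89% lower. The collagens were all called again (10 of 10), as were 8 of 10 activated fibroblast markers and 4 of 7 tendon and cartilage markers. The chondroitin and dermatan sulfate enzymes called higher went from 4 to 7 of 12 with Chsy1, Chpf and Ust, and the growth factors and matrix proteins from 5 to 6 of 8 with Tgfb2. The receptors went from 3 to 5 of 9 with Tlr2 and Itga2, and the proteases from 5 to 8 of 10, with Adamts1, Adamts4, Adamts5 and Pcolce gained and Mmp12 lost. Papss2 was called in the list of sulfate supply, and Fam20b was no longer called lower. The fibroblast markers went from 4 to 6 of 10 and the macrophage markers from 3 to 7 of 10. The cardiomyocyte markers Ryr2 and Tnni3 were then called lower, as were the atrial markers Myl7 and Myl4, and Nppa was no longer called. The sham arrays kept were those with the higher atrial signals, Myl7 at 11.19 and 8.43 and Sln at 10.25 and 7.45. In this fit atrial signal and group therefore cannot be told apart. Among the other cell types, Pdgfrb was called higher and Emcn, Abcc9 and Pnpla2 lower. No keratan sulfate enzyme was called by limma in either fit.

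The genes with the most similar pattern were sought among 12024 protein-coding genes, by the root mean square difference over the 6 arrays after each gene was centred on its sham mean. No member had another member among its nearest 2. For Fmod the nearest were Thbs1, a thrombospondin, at 0.20 and Fn1 at 0.47, and for Aspn they were Mgp, an inhibitor of calcification, at 0.56 and Itgbl1 at 0.60. Prelp had Ecrg4 (0.23) and the thyroid hormone deiodinase Dio2 (0.30), and Bgn had Pi16 (0.17) and the complement gene C4b (0.20). Lum had Gm4788 (0.49) and the growth factor Ptn (0.52), and Omd had the dermatopontin gene Dpt (0.46) and Thbs2 (0.50). Ecm2 had Fxyd6 and Zfp185 (0.15 each), Ogn had Cd302 (0.13) and Xirp2 (0.15), Dcn had Dock11 (0.08) and Casp4 (0.09), and Podn had Casp8 (0.08) and Myadm (0.13). The measure grows with the size and spread of a gene's differences, so its values cannot be compared between members.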

How the data were processed

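Total RNA was labelled and hybridized to GeneChip mouse transcriptome arrays. The authors deposited log2 signals after RMA with SKETCH normalization in Expression Console, with control probe sets and without a low-intensity filter. No genome build was used for the array values. Of 65956 transcript probe sets (6732 controls left out), those with a mean of at least 4.36, the median, were tested. MI and sham were compared by lmFit and eBayes of limma 3.58.1 (R 4.3.3), two-sided and without covariates. P-values of all 32979 probe sets were adjusted by Benjamini-Hochberg and called under 0.05. The script was tested on simulated data. Precision is limited by the number of arrays.

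The members and lists were chosen with earlier results of these data known. Named are all members, the largest 2 and the smallest gene of each list (small lists in full; of the marker lists only those of fibroblasts, tendon and cartilage, the others as counts), the neighbouring genes, the nearest genes by pattern, and others that were chosen after their values were seen. Genes whose probe set carries several symbols are not analysed here. Symbols came from the platform table, and from RefSeq through the gene ID where a listed name differed. Protein sequences were not used here. Member pairs were compared with exact permutation tests in scipy 1.17.1. Alternatives were other filters, the methods' t-test, trend and robust options or array weights in limma, centring, quantile normalization, the replicate block, each array left out in turn, the mean over a member's probe sets and, chosen after seeing the data, sham 1 and MI 3 left out together. Same-numbered sham and MI arrays deviated from their group means with correlations of -0.287, 0.352 and -0.374. Differently numbered arrays ran from -0.505 to 0.499. With 3 arrays per group these values cannot decide whether the numbers pair the samples.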

Additional observations from a re-analysis of the deposited data

How the results depend on the processing

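The number of members called higher, 9 from limma with all arrays, was 9 with the stricter filter, with trend and robust options, with array weights and with each array centred, 8 with no filter and 6 after quantile normalization. It was 3 with the methods' t-test. With the replicate block it was 0 from limma, as for every probe set, with 9 members at an unadjusted p under 0.05. The titles share only replicate numbers, and the study describes no pairing of the samples. With 1 array left out the number ranged from 0 to 9. Without sham 1 and MI 3, chosen after seeing the data, it was 8. The median log2 difference of the members, 2.41, was 2.90 with array weights and 2.12 to 2.58 with 1 array left out. The mean over a member's probe sets equals the value reported, since each has 1. Podn ranged with 1 array left out from -0.04 (reversed, without MI 2) to 0.64 (without MI 3), and no other member reversed under any alternative. Across all alternatives the log2 difference of Dcn ran from 0.91 to 1.24 and that of Fmod from 4.72 to 6.05. Over all probe sets, 980 were called higher and 1200 lower, against 835 and 1570 after centring and 750 and 1513 after quantile normalization. The number higher was 114 with the methods' t-test, 5165 with array weights, 0 with the block (7078 at an unadjusted p under 0.05) and 0 to 2257 with 1 array left out. The cause of these changes was not tested. Signals at or below the brightest background control and signals at the maximum of an array limit the size of the differences that rest on them, and 3 arrays per group left an interval of -0.67 to 1.21 for Podn.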
